A study of Mus musculus with 4 samples.

Results

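Bergmann glia genes were examined in laser-captured Purkinje cells of the mouse cerebellum, on Affymetrix expression arrays that give 1 signal for each probe set, a group of short probes against 1 transcript. The 10 genes Slc1a3, Slc1a2, Glul, Gja1, Gjb6, Aqp4, Hopx, Gdf10, Timp4 and Gfap are known markers of Bergmann glia and astrocytes. They were picked by name with the levels of such markers in these same samples already known, so their levels are given as a description without a test. Every probe set that the platform's annotation assigns to exactly 1 of these genes was taken, which gave 31 of the 45101 probe sets on the array, for 10 of 18193 named genes. A further probe set that lists Slc1a2 beside another gene was left out by this rule.

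All samples came from intact male C57BL/6J mice aged 8 weeks, with no treatment named, and formed 1 group of 4 captures labelled as cerebellar Purkinje cells. There were 2 captures from each of 2 animals, called here 1-1, 1-2, 2-1 and 2-2 after their labels. The labels do not say how cells were recognized, how many were pooled or whether the captures of 1 animal were cut separately. All 17 measured genes of a Purkinje cell list, among them Calb1, Pcp4 and Car8, lay above the background bound defined below on every array. The arrays of animal 2 were brighter, with trimmed mean signals of 72.5 and 87.6 against 55.8 and 56.8. With 4 arrays, precision is limited by their number.

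Bergmann glia are astrocytes whose cell bodies sit among the Purkinje cell bodies and whose fibres climb through the molecular layer, wrapping Purkinje dendrites and their synapses. They are known for clearing synaptic glutamate, turning it into glutamine, passing ions and small molecules through gap junctions, and moving water at the blood vessels. Most of the 10 genes are also used by other astrocytes. In such captures a smaller share of glial material and less RNA per glial cell cannot be told apart.

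To tell signal from background, 85 genes that belong to other organs, such as keratins and liver proteins, were read on each array, and the bound was put at the 95th percentile of their values. In deposited signal units it lay at 51.0, 43.3, 60.4 and 67.1 in samples 1-1, 1-2, 2-1 and 2-2. Each gene was represented by its brightest probe set. For 9 of the 10 genes this probe set exceeded the bound in every capture, and for Gfap in 2 of them. Over all named genes the share above the bound on all 4 arrays was 28.1%, and because the genes were picked with such levels known, nothing is read from that contrast. Counted singly, 16 of the 31 probe sets exceeded the bound in all 4 captures, 3 in some and 12 in none, where 17.3% of all probe sets passed on all 4. Because each probe set has its own sensitivity, levels are compared between samples. A ranking of genes by level serves only to choose which ones to name.

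**Figure D1:**
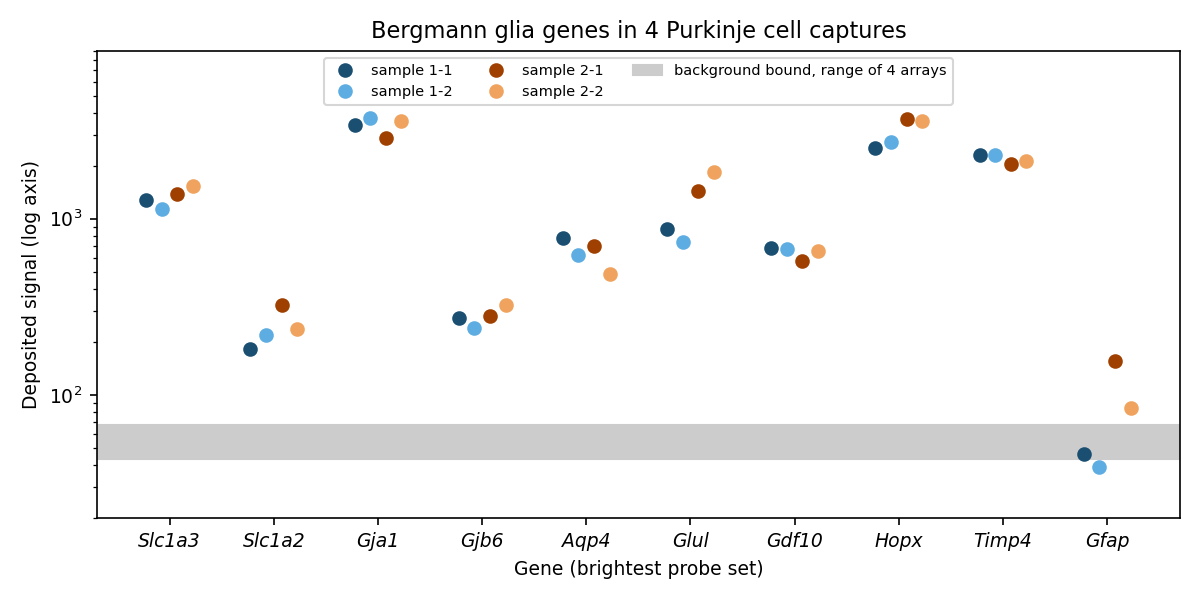
Deposited signal of the brightest probe set of each of the 10 genes (y axis, log scale) in the 4 captures (points, coloured by sample), with the range of the background bound over the 4 arrays as a grey band. The first 9 genes lie above the band in every sample, and Gfap lies within or below it in both samples of animal 1 and above it in both samples of animal 2.

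The first genes are those of glutamate uptake. Slc1a3, the transporter that carries most glutamate uptake in Bergmann glia, gave deposited signals of 1274, 1142, 1374 and 1528 in samples 1-1, 1-2, 2-1 and 2-2 on its brightest probe set (1443749_x_at). All lay far above the bound, and the samples of animal 2 were the higher ones as deposited. After quantile normalization, which gives the 4 arrays the same distribution, the level was 10.37 ± 0.12 (mean log2 signal, SD, n = 2 animals) and animal 2 stood slightly below animal 1. Its probe set 1452031_at gave 1109, 1189, 934.6 and 1007, lower in animal 2 on both scales. Another, 1426340_at, lay nearer the bound at 102 to 166. The other 3 probe sets of Slc1a3 stayed under the bound on every array, with signals from 1.0 to 18.6.

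Slc1a2, the glutamate transporter that dominates in forebrain astrocytes, was above the bound on 1 of its 5 probe sets. That probe set (1438194_at) gave 182, 220, 325 and 236 in samples 1-1, 1-2, 2-1 and 2-2, and its normalized level was 7.88 ± 0.06 (SD, n = 2 animals). The animals overlapped after normalization. The other 4 probe sets ran from 0.30 to 50.2 and were under the bound everywhere.

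Glul, glutamine synthetase, which turns the glutamate taken up into glutamine, gave 870.3, 741, 1446 and 1846 on 1426236_a_at. Both samples of animal 2 lay above both of animal 1, also after normalization, at a level of 10.16 ± 0.39 (SD, n = 2 animals). Its second probe set (1426235_a_at) gave 33.8, 17.0, 72.9 and 95.2, which put both samples of animal 2 above the bound and both of animal 1 below it. Because the second probe set was above the bound only in animal 2, its order is no separate support for that of the first.

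The next genes serve gap junctions and water transport. Gja1, the main connexin of astrocytes, was above the bound on all 4 arrays with 4 of its 6 probe sets. On 1437992_x_at it gave 3413, 3714, 2865 and 3601 in samples 1-1, 1-2, 2-1 and 2-2, a normalized level of 11.72 ± 0.40 (SD, n = 2 animals). On 1415800_at, the brightest Gja1 probe set whose name carries no mark of binding several transcripts, it gave 1184, 1216, 708 and 884. Here both samples of animal 2 lay below both of animal 1 on both scales, and after normalization the samples of animal 1 differed by 0.01 and those of animal 2 by 0.04. On 1438945_x_at the signals were 1924, 2275, 1276 and 1827, again lower in animal 2.

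Of the other probe sets of Gja1, 1438650_x_at and 1438973_x_at did not show that order, and 1415801_at showed it only on signals under the bound. On 1438650_x_at sample 2-1 stood alone at 607 against 1302, 1218 and 2139 in samples 1-1, 1-2 and 2-2. On 1438973_x_at the signals of 42.7 to 92.5 lay near the bound, above it on 3 arrays. On 1415801_at they ran from 0.50 to 7.30, under the bound on every array, although the annotation gives this probe set and 1415800_at the same source sequence.

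Gjb6, another astrocyte connexin, has 1 probe set (1448397_at), which gave 273, 240.4, 280 and 325. Its normalized level was 8.12 ± 0.23 (SD, n = 2 animals). Aqp4, the water channel of astrocyte endfeet, gave 775, 624, 696 and 487 on 1434449_at, with the lowest signal in sample 2-2, and a normalized level of 9.31 ± 0.53. Its other 2 probe sets were under the bound on every array, at 1.0 to 34.9.

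Hopx, Gdf10 and Timp4 follow, a nuclear cofactor and a pair of secreted proteins. Hopx, a small homeodomain protein without DNA binding of its own, gave 2526, 2714, 3674 and 3586 on 1428662_a_at. The animals separated as deposited but overlapped after normalization, where the level of 11.58 ± 0.04 (SD, n = 2 animals) had the smallest spread of the 10 genes. Its second probe set (1451776_s_at) gave 98.1, 74.5, 205 and 109, also above the bound on all 4 arrays. Gdf10, a secreted ligand of the bone morphogenetic protein family, gave 685, 675, 577 and 655 on its 1 probe set (1424007_at), at 9.33 ± 0.45. Timp4, an inhibitor of matrix metalloproteinases, gave 2294, 2291, 2034 and 2120 on 1423405_at, at 11.08 ± 0.42. Gdf10 and Timp4 were lower in both samples of animal 2 than in both of animal 1, as deposited and after normalization. The second probe set of Timp4 (1450974_at) lay just above the bound at 51.6, 70.8, 63.7 and 120.4.

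Gfap, the intermediate filament of reactive and fibrous astrocytes, was the 1 gene of the 10 that did not pass the bound in every capture. Its brightest probe set (1440142_s_at) gave 46.2, 38.7, 155 and 84.6, below the bound in both samples of animal 1 and above it in both of animal 2. The other 2 probe sets (1426508_at and 1426509_s_at) ran from 0.90 to 17.6 and were under the bound on every array. A gene near the bound has only an uncertain level, so the difference between animals on 1440142_s_at rests on signals close to background.

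**Figure D2:**
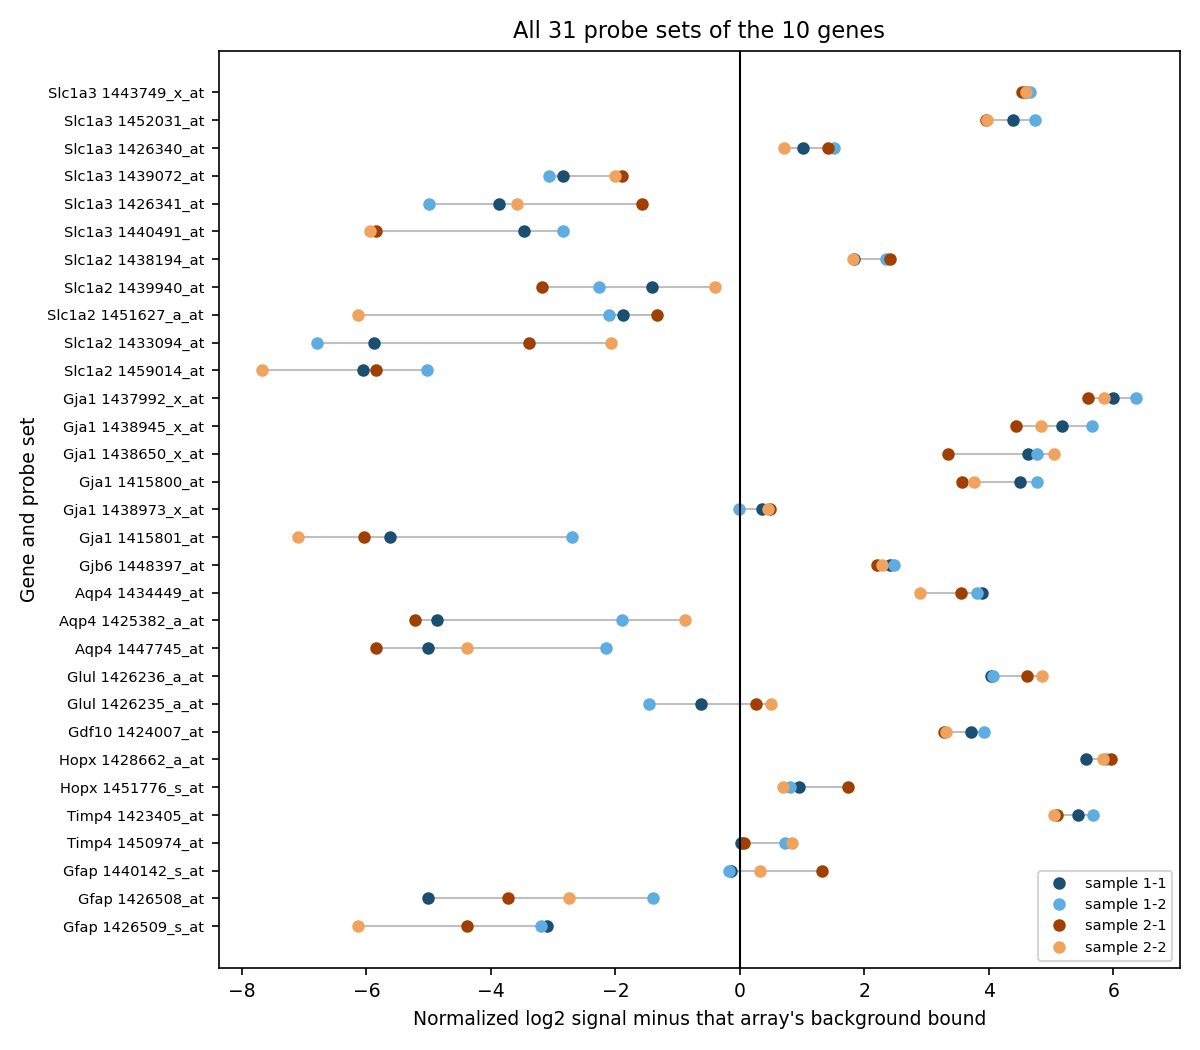
Quantile-normalized log2 signal of each of the 31 probe sets minus the background bound of the same array (x axis), with 1 point per sample and a grey line over the range of the 4 samples. For Slc1a3, Slc1a2, Gja1, Aqp4 and Gfap, probe sets far below 0 stand beside others above or near 0, and points below 0 scatter more than those far above it.

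Of the 8 genes with several probe sets, 5 had at least 1 that was under the bound on every array. With the median over a gene's probe sets in place of the brightest, 6 of the 10 genes passed on all 4 arrays. Without probe sets whose names mark binding to several transcripts, 7 did. Glul and Hopx then had no probe set left to read, and Gfap was under the bound.

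Both animals have the same labels, so the comparison of animal 2 with animal 1 asked only how far captures of different animals differ in their glial signal. Gja1 on 1415800_at had a normalized log2 difference of -1.08 ± 0.16 (SE, limma, animal 2 minus animal 1, n = 2 samples per animal, adjusted p = 0.0647). On 1438945_x_at and 1437992_x_at it stood at -0.90 ± 0.15 (adjusted p = 0.0695) and -0.57 ± 0.09 (adjusted p = 0.0679). Timp4 stood at -0.60 ± 0.12 on 1423405_at (adjusted p = 0.0918) and Slc1a3 at -0.72 ± 0.16 on 1452031_at (adjusted p = 0.119). Aqp4 (-0.74 ± 0.31) and Gdf10 (-0.64 ± 0.20) lay in the same range with adjusted p-values of 0.284 and 0.185. On the other side Glul stood at 0.56 ± 0.16 (adjusted p = 0.174) on 1426236_a_at and at 1.30 ± 0.74 (adjusted p = 0.409) on 1426235_a_at. Hopx at 0.06 ± 0.11 and Slc1a2 at -0.08 ± 0.36 were near 0, Gjb6 stood at -0.32 ± 0.28, Slc1a3 on its brightest probe set at -0.18 ± 0.15, and Gfap at 0.87 ± 0.58.

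None of these differences passed the test. Of the 19 probe sets bright enough to be tested, 0 were called at a false discovery rate of 0.05 by limma with Benjamini-Hochberg adjustment over 11006 probe sets, of which 0.318% were called. At an unadjusted p under 0.05 there were 8 of the 19 (42.1%), 7 negative and 1 positive, against 17.6% of all probe sets tested. Such tests take captures of 1 animal as replicates and measure only the spread between captures, which may be technical. The remaining 12 probe sets were too dim to test, and Gfap 1440142_s_at and Glul 1426235_a_at entered the test only through animal 2, where they were higher.

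The calls depended on which probe sets and samples entered the fit. When only probe sets that passed the bound in all 4 captures were tested, 4 of 16 were called, against 2.33% of the 7779 tested. These were Gja1 on 1415800_at (adjusted p = 0.0275), 1437992_x_at and 1438945_x_at (adjusted p = 0.0335 for both) and Timp4 on 1423405_at (adjusted p = 0.0483), all lower in animal 2. Without sample 2-1, and likewise without sample 2-2, 6 of 17 probe sets were called, against 8.1% and 10.3% of all tested in those fits, and without sample 1-1 or 1-2 the number was 0. With 1 sample of animal 2 left out, the spread comes from the pair of animal 1 alone.

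The values also depended on the scale. On values as deposited, the median difference of all tested probe sets was 0.48, against -0.05 after normalization, and 18 hybridization control probe sets, a target added from outside the tissue, had a median ratio of animal 2 to animal 1 of 1.92. On that scale Glul was called on 1426236_a_at (1.02 ± 0.22, adjusted p = 0.0432, limma), where 5.52% of all tested probe sets were called. Gja1 on 1415800_at then stood at -0.60 ± 0.22 (adjusted p = 0.127) and kept its sign, as did its other probe sets 1438945_x_at (-0.45) and 1437992_x_at (-0.15), Aqp4 (-0.26), Gdf10 (-0.15), Timp4 (-0.14) and Slc1a3 on 1452031_at (-0.24). Slc1a3 on its brightest probe set (0.26), Slc1a2 (0.47) and Gjb6 (0.23) turned positive, so their direction belongs to the scale, while all 3 stayed under the 0.48 of the median probe set.

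The order of the samples can be read without a model. After normalization both samples of animal 2 lay below both of animal 1 for 9 of the 19 tested probe sets (47.4%), against 25.5% of all tested, and above both for 3 (15.8%), against 23.7%. Of those 3, Glul 1426235_a_at and Gfap 1440142_s_at had passed the filter only through animal 2, which fixed their order. As deposited they lay below for 5 (26.3%), against 7.35% of all, and above for 9 (47.4%), against 51.4%. Several of these probe sets measure the same gene, so they are not independent of each other. Over the 10 genes the median difference was -0.25 after normalization and 0.25 as deposited.

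The ratio of Glul to the other genes within 1 array, taken here from deposited signals, does not depend on a single scaling factor per array. Quantile normalization can change it. Glul was taken as the numerator after it was seen to stand opposite to most of the other genes. These ratios therefore restate its value on a measure free of such a factor and are a description. The log2 ratio of Glul to Gja1 (1437992_x_at) was -1.97 and -2.33 in animal 1 and -0.99 and -0.96 in animal 2, higher in animal 2 by 1.17. Relative to Timp4, Gdf10 and Aqp4 it was higher by 1.17, 1.17 and 1.28, and relative to Slc1a3, Gjb6 and Hopx by 0.76, 0.79 and 0.55. All 7 share the Glul signal and are not separate observations. Relative to Slc1a2 and Gfap the difference was 0.56 and -0.41 with overlapping samples. With 2 samples per animal the smallest two-sided exact permutation p is 0.333, so no test was made.

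**Figure D3:**
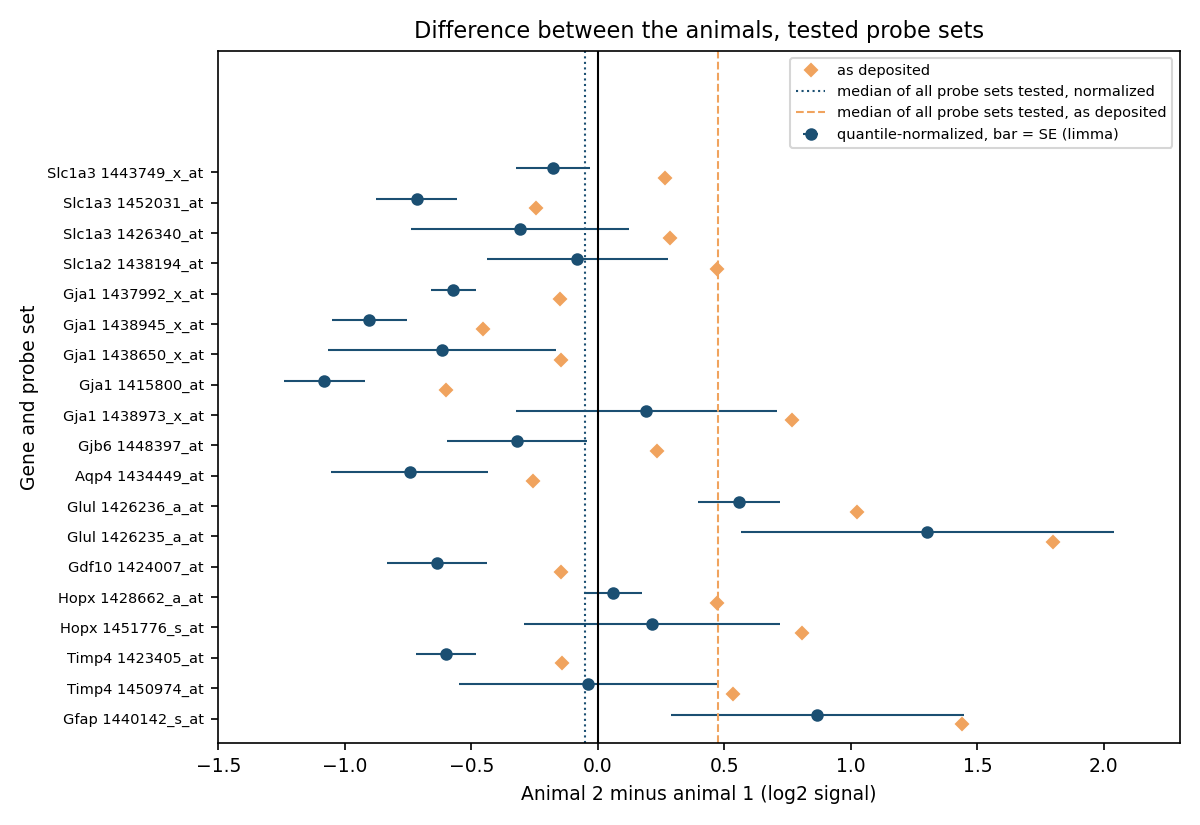
Difference between the animals in log2 signal (x axis, animal 2 minus animal 1) for the 19 tested probe sets, after quantile normalization (circles, bars are SE from limma, n = 2 samples per animal) and as deposited (diamonds), with the median of all tested probe sets on each scale as a dotted and a dashed line. Gja1 on 1415800_at lies furthest to the left on both scales, at -1.08 and -0.60, and Glul on 1426235_a_at furthest to the right.

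A few of these genes are shown by their promoters because they stand on opposite sides of the comparison, Gja1 and Timp4 lower in animal 2 and Glul higher. They were picked after their values were seen, and none of their differences passed the first test above. The sequences are the 250 bases before the annotated start, from RefSeq on the mouse build GRCm38.p6, written on the gene's own strand. Capitals mark the letters TTGGC on either strand, a short motif bound by nuclear factor I proteins, which are known for their part in astrocyte genes. The windows are chr10:56377050-56377299 on the plus strand for Gja1, chr6:115252206-115252455 on the minus strand for Timp4 and chr1:153899679-153899928 on the plus strand for Glul.
Gja1: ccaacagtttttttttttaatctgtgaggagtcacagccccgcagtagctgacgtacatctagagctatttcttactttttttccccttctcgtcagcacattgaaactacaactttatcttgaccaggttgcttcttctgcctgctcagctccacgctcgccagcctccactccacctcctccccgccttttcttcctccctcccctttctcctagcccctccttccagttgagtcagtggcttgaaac
Timp4: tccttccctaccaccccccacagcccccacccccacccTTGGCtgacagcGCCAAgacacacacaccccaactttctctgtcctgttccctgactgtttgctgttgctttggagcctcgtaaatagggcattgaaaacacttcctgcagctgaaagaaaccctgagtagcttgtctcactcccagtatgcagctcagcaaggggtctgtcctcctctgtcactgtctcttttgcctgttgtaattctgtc
Glul: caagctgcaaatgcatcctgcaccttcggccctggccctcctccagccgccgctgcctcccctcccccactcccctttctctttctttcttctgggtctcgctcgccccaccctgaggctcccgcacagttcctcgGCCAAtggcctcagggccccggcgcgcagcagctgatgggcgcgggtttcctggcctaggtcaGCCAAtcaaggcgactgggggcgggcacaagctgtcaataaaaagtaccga

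The Timp4 and Glul windows hold 2 such motifs each, and the Gja1 window holds 0. Gja1 and Timp4 thus differ in these letters, and a link between the motif and the animals was not tested. Of the 10 windows examined, which belong to 9 of the genes, 5 have at least 1 such motif, and 41.5% of all 32851 promoter windows of that length do. A match is a string of letters and not a shown binding site. The genes of 3 nuclear factor I proteins, named after their values were seen, exceeded the bound in every capture, with normalized levels of 6.93 ± 0.88 for Nfia, 6.88 ± 0.33 for Nfib and 7.27 ± 0.52 for Nfix (SD, n = 2 animals).

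Other genes known from Bergmann glia and astrocytes were read in the same captures. Of a list of 56 such genes 55 were measured, with 37 detected above the bound in all 4 captures and 14 in 0. The brightest were Htra1, a secreted protease (12.66 ± 0.13, SD, n = 2 animals), Mt1, a metallothionein (11.55 ± 0.22), Dbi, the acyl-CoA binding protein (11.36 ± 0.39), Clu, the secreted chaperone clusterin (10.87 ± 0.65), Id4, a transcription inhibitor (10.72 ± 0.48), and Sparcl1, a secreted matrix protein (10.60 ± 0.08). The dimmest were Slc6a11, a glial GABA transporter, Gjb2, a connexin, and Slc7a11, a cystine transporter, all under the bound on every array. Several of the bright genes, Dbi among them, are also used by neurons.

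Between the animals 1 of the 39 genes of this list bright enough to test was called, Clu, at -0.92 ± 0.12 (SE, limma, adjusted p = 0.0480), with signals of 2192, 2230, 1523 and 1654 in samples 1-1, 1-2, 2-1 and 2-2. The Clu call was lost as deposited (-0.48, adjusted p = 0.108), without a filter on dim probe sets (adjusted p = 0.159), without the mean-variance trend (adjusted p = 0.253) and without sample 1-1 or 1-2 (adjusted p = 0.344 and 0.426). Dbi stood at -0.55 ± 0.09 (adjusted p = 0.0709) and Id4 at -0.68 ± 0.15 (adjusted p = 0.112). Mt1 stood at 0.32 ± 0.09 (adjusted p = 0.159). At an unadjusted p under 0.05, 12 genes were negative and 1 was positive, where 17.6% of all probe sets tested passed. The median over the 39 genes was -0.36 after normalization and 0.20 as deposited, beside -0.05 and 0.48 over all probe sets tested.

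Lists of other cell types are given beside these values, and Pcp2 was the 1 gene called among them. The Purkinje cell list had a median difference of 0.21 (0.65 as deposited), with 1 of 17 genes called, Pcp2 at 0.57 ± 0.07 (SE, limma, adjusted p = 0.0420), and 8 genes positive and 1 negative at an unadjusted p under 0.05. The Pcp2 call was lost with arrays scaled to 1 trimmed mean (adjusted p = 0.0785), without a filter (0.178), without the trend (0.344) and without sample 1-1 or 1-2 (0.0894 and 0.0592). The summed normalized signal of the list ran from 83415 to 83916 in animal 1 and from 92593 to 93647 in animal 2. On the same scale the 10 glial genes summed to 14293 and 14484 in animal 1 and to 11354 and 12507 in animal 2. Such sums weigh bright genes most. The lower glial sum belongs to the normalized scale, as the median difference over the 10 genes was 0.25 as deposited. Over all probe sets tested that median was 0.48 as deposited. Granule cell genes, 20 of 21 measured and 6 above the bound on all 4 arrays, had a median of -1.25 (-0.74 over the tested genes as deposited) and summed to 5369 and 6336 in animal 1 against 2418 and 2658 in animal 2. Their brightest genes were Zic1 (10.52 ± 0.91, SD, n = 2 animals), Gabra6 (9.30 ± 0.87) and Cbln1 (8.55 ± 0.71). By limma 0 of the 11 tested were called, and 7 had an unadjusted p under 0.05, all of them lower in animal 2, where 17.6% of all probe sets passed. The part of these cells in the glial values was not tested.

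Oligodendrocyte genes, 17 of 19 measured, passed on all 4 arrays in 4 cases and on none in 11, and summed to 5301 and 5590 in animal 1 and to 3561 and 4738 in animal 2. Cnp (11.38 ± 0.48, SD, n = 2 animals), Mbp (10.18 ± 0.09) and Olig1 (8.35 ± 0.37) were their brightest, while Mog and Olig2, named after their values were seen, were under the bound on every array. Glul is also used by oligodendrocytes, and their part in its values was not tested. Interneuron genes passed on all 4 arrays in 3 of 14 cases, their brightest being Lgi2, Cacng5 and Npas3, and blood vessel genes in 2 of 15, their brightest being Slc2a1, Rgs5 and Slco1a4. Microglia genes passed in 1 of 14 cases (Csf1r, with C1qb and Ctss next). Choroid plexus and meninges genes passed in 1 of 12 (Clic6, with Col1a2 and Slc6a13 next). Over the tested genes the normalized median difference between animals was -1.11 for interneuron (6 genes) and -0.66 for blood vessel genes (3). It was 0.04 for microglia (2 genes) and -0.29 for choroid plexus and meninges (1 gene). The red blood cell genes Slc4a1, Hba-a1 and Alas2 lay under the bound on every array.

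**Figure D4:**
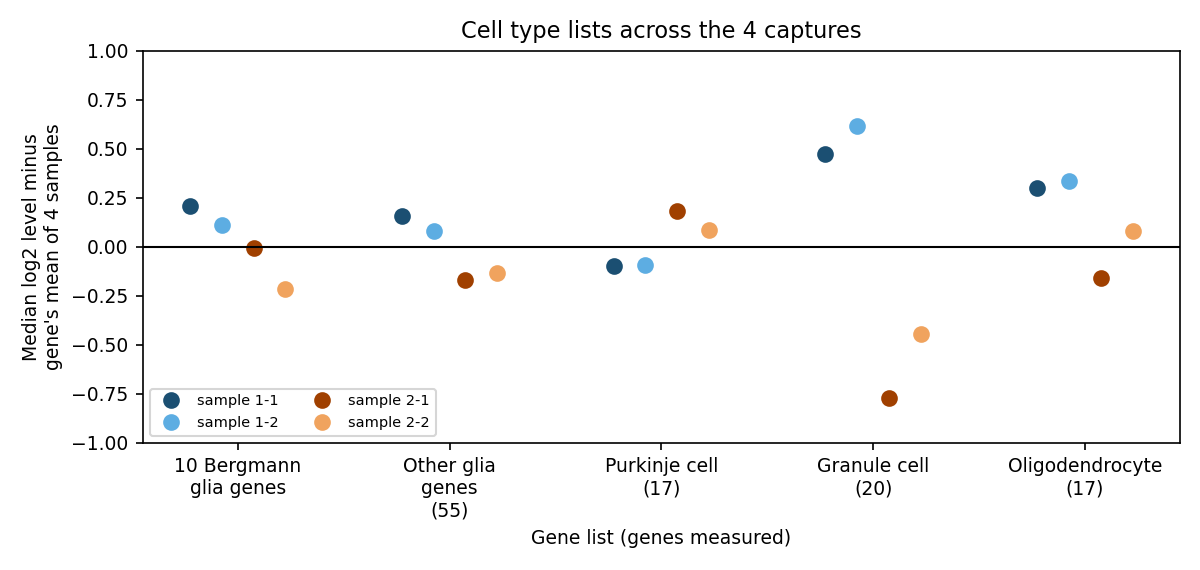
Median over the genes of each list of the normalized log2 level minus the gene's own mean of the 4 samples (y axis), for 5 lists (x axis, genes measured in brackets) and the 4 captures (points). The glial, granule cell and oligodendrocyte medians lie higher in the samples of animal 1 than in those of animal 2. The Purkinje cell medians lie the other way round. The medians include genes under the bound on every array, 14 of 55 other glial, 8 of 20 granule cell and 11 of 17 oligodendrocyte genes. As deposited the median differences of both glial lists turn positive, at 0.25 for the 10 genes and 0.20 over the 39 tested genes of the other list. Both lie under the 0.48 of all probe sets tested on that scale. Over the 4 tested oligodendrocyte genes the median difference is -0.28 after normalization, with genes from -0.98 to 0.52, and 0.15 as deposited.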

How the data were processed

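Each deposited value is a probe set's intensity, not on a log scale. The submitters' processing notes name GCOS, Affymetrix's software, as the tool. Its version, algorithm and scaling are not given in the sources. Per the labels' protocols, RNA was amplified in 2 cycles, which can favour transcript ends near the poly-A tail. Columns of other samples numbered 0.

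Of 45101 probe sets, 64 controls were left out, 34945 had 1 gene symbol in the platform annotation (0 needed an update), 932 several and 9160 none there. Values under 0.1 were set to 0.1 and log2 was taken. Array means after trimming the outer 2% at either end differed by 46.6% of their average, over a tolerance of 5%, so quantile normalization was applied. The bound was computed from 85 of 95 listed genes of other organs that were matched. Probe sets above it on at least 2 arrays (11006) were tested in limma 3.58.1 under R 4.3.3 (lmFit, then eBayes with trend), with 2 residual degrees of freedom. The fit was tested on simulated data with independent noise on each array. Such data cannot show how the fit does where captures of 1 animal share a deviation.

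The named genes were the 10 members with all probe sets, the 6 brightest and 3 dimmest other glial genes and any called, and the 3 brightest and any called of each other list. Genes named outside this rule are marked as such where they appear. Members, lists and tests were chosen with earlier results of these data known. Alternatives were other bounds, scales, filters, probe set choices, a fit without trend, sample number as a block and each sample left out. No genome was given, and promoter sequences came from a RefSeq table.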

Additional observations from a re-analysis of the deposited data

Results flagged for a closer look

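Gja1 on 1438650_x_at was set apart because 1 sample lay far from the other 3. Sample 2-1 was at 9.14 against 10.47 to 10.69 in the others (normalized log2 signal), a gap of 0.858 of the whole range. It was the only one of the 31 probe sets with such a gap, and about 1 in 20 groups shows one by chance. On the brightest Gja1 probe set, 1437992_x_at, sample 2-1 was at 11.39 beside 11.48 in sample 2-2.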

How the results depend on the processing

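The count of the 10 genes above the bound stayed between 6 and 10, and that of the 31 probe sets between 13 and 19, under every alternative tried. The count of probe sets called between animals, 0, became 1 as deposited and 4 when only probe sets past the bound in all 4 samples were tested. It ran from 0 to 6 with 1 sample left out. With sample number within the animal as a replicate block it was 4 as well (249 of all probe sets tested, against 35). Deviations of same-numbered samples correlated at -0.02. This value cannot exclude that the numbers pair the samples for some probe sets, and the labels do not say what the numbers stand for. Over all probe sets tested, 607 were called as deposited, 181 with the stricter filter, 55 with an offset of 16, 5 without a filter, and 2 to 1033 with 1 sample left out. Without the trend 0 of all 11006 probe sets were called, the 19 among them. The median over the 10 genes, -0.25, became 0.25 as deposited and ran from -0.40 to -0.21 with 1 sample left out. It was -0.62 when probe sets named as binding several transcripts were dropped, but over fewer genes. Glul (0.56) and Hopx (0.06) then had no probe set left. Slc1a3, Gja1 and Gfap were read on other probe sets, that of Gfap under the bound on every array.

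Of 17 probe sets followed, those that changed sign were as follows. As deposited, Slc1a3 stood at 0.26 (1443749_x_at) and 0.29 (1426340_at), Slc1a2 at 0.47, Gjb6 at 0.23 and Timp4 1450974_at at 0.53. With arrays scaled to 1 trimmed mean, Hopx 1428662_a_at stood at -0.030 and Timp4 1450974_at at 0.033. With 1 sample left out, ranges were -0.46 to 0.29 for Slc1a2, -0.35 to 0.27 for Timp4 1450974_at and -1.41 to 0.17 for Gja1 1438650_x_at. They were -0.073 to 0.20 for Hopx 1428662_a_at, -0.38 to 0.82 for Hopx 1451776_s_at and -0.73 to 0.12 for Slc1a3 1426340_at. The cause was not tested. Signals near the bound limit what can be said of Gfap and of the second probe sets of Glul, Hopx and Timp4.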
